A study of Mus musculus with 2 samples.

Results

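The 10 genes described here belong to the BCL2 family, which sets whether a cell keeps or loses the integrity of its mitochondria. They are Bcl2, Bcl2l1, Bcl2l2, Mcl1, Bak1, Bid, Bad, Bcl2l11, Bik and Bmf. The rule that takes their probes uses no measured value, but the list of names was chosen with earlier results of these data known. Every non-control probe whose transcript accession is listed for one of these genes in RefSeq was taken, which gave 15 probes out of 55681 on the array and covered 10 of 10 genes, out of 21360 genes that could be named. Lineage-negative, Sca-1+, c-kit+ (LSK) cells, the bone marrow fraction that holds hematopoietic stem and early progenitor cells, were measured on 1 array from nondiabetic and 1 array from diabetic C57BL/6J mice. Diabetes had been induced with streptozotocin (STZ), an alkylating glucose analogue that destroys pancreatic β cells and that was given to the diabetic group only. Each array stands for 3 mice and 8.3 ng of total RNA, and the labels call the mice female on both arrays where the study's own statement on sex says male. The age of the mice and whether their RNA was pooled before amplification are not given in the labels. There was no replicate of either condition, so no difference was tested, and each is described by its size.

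The family has 3 kinds of proteins. Survival proteins (Bcl-2, Bcl-xL, Bcl-w and Mcl-1) bind and restrain the others, pore-forming proteins (Bak and Bax) open the outer mitochondrial membrane and release cytochrome c, and BH3-only proteins (Bid, Bad, Bim, Bik, Bmf) carry stress signals to both. Blood stem cells are known to depend on Mcl-1, and blood cells deprived of cytokines are known to die through Bim. Most of this control is exerted on the proteins, by cleavage, phosphorylation and degradation, which an RNA measurement does not show.

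The cells carried the RNAs of their sorting gate. Kit measured 4635 on the nondiabetic and 4735 on the diabetic array, and Ly6a, which encodes Sca-1, had 475 and 701. Of 8 further genes of blood stem and progenitor cells, 8 were well above background on both arrays, 7 lay within 2-fold and Mecom was 2.30-fold lower in diabetic cells by its brighter probe, with 182 and 86.1, while its other probe had a log2 ratio of -0.16. Genes of the T cell, B cell, erythroid, and granulocyte and monocyte lineages were also read. By the brightest probe of each gene, 4 of 5 T cell genes stood well above background in nondiabetic and 2 in diabetic cells. The summed intensities of 1270.3 and 1237 came mostly from Cd4, with 971 and 1019, whose other probe had 52.9 and 70.7. Cd3d and Cd3g, at 25.4 each on the nondiabetic array, were each at least 2.74-fold lower in diabetic cells. Cd3e had 238 and 198, within 2-fold. For 5 B cell genes, 4 were above background on both, with sums of 209 and 294, and Cd79a was 2.85-fold higher. For 4 erythroid genes, 4 were above background on both, with sums of 2982 and 6719. Most of both sums came from the globin genes Hba-a1, with 1984 and 4967 and 2.31-fold higher, and Hbb-bt, with 923 and 1681. Klf1 had 19.1 and 16.9 and Epor 57.0 and 53.8, both slightly lower in diabetic cells. For 6 granulocyte and monocyte genes on the array, 6 were above background on both, with sums of 43213 and 42277. Most of that last sum came from 1 probe of Itgam, the gene of the lineage antigen CD11b, at 34686 and 35189. Its other probes were far dimmer, with 284 and 142 for 1 and 111 and 49.2 for the other, 2.17-fold and 2.46-fold lower in diabetic cells. S100a8 in the same list was 2.78-fold lower, with 52.2 and 20.4, and by the brightest probe the other 5 genes lay within 2-fold. S100a9 had 548 and 637 and Elane 192 and 295, both higher in diabetic cells. Mpo had 2731 and 1851 and Csf1r 5003 and 4284, both lower. Cd8a and Ms4a1 were not well above background on either array. What these RNAs contribute to the values below was not tested. In sorted cells measured in bulk, fewer cells of a type and less RNA per cell cannot be told apart.

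Of the 15 BCL2 family probes, 13 were well above background on both arrays, 1 on the diabetic array only and 1 on neither, and each was printed as a single spot with no outlier or saturation flag. Intensities below are the scanner software's background-corrected values in arbitrary units. Log2 ratios are diabetic over nondiabetic after each array was scaled to its own 75th percentile, and the error behind ± is the software's own error for the spots, which does not hold the variation among mice, sorts or amplification reactions. Probes printed at least 5 times show the spread from spot to spot. With probes ordered by brightness into 3 equal classes, the median SD of their log2 ratios was 0.25 for the dim, 0.13 for the middle and 0.07 for the bright class. A log2 ratio of 1 is a 2-fold difference, the size used here to single out a probe. Percentiles give how bright a probe was among all probes of its array and do not compare amounts of RNA between genes.

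**Figure D1:**
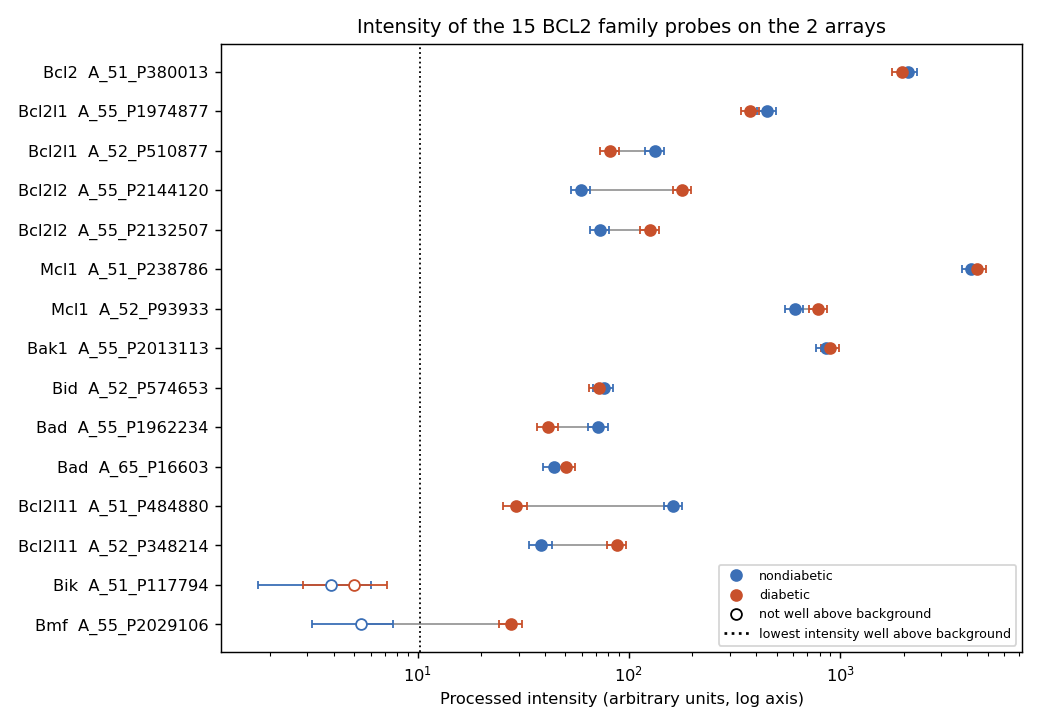
Background-corrected intensity (log axis) of the 15 BCL2 family probes on the nondiabetic (blue) and diabetic (orange) array, 1 array each. Bars are the scanner software's error of a spot, open points are not well above background, and the dotted line is the lowest intensity well above background on the nondiabetic array (10.2). The probes of Bcl2, Bak1, Bid and the brighter probe of Mcl1 nearly coincide between the arrays, the probes of Bcl2l11 cross over, and Bik lies below the line on both.

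The survival genes Bcl2 and Mcl1 were bright and nearly level between the arrays. Bcl2, the founding survival gene of the family (probe A_51_P380013), measured 2103 in nondiabetic and 1960.2 in diabetic LSK cells (log2 ratio -0.22 ± 0.20). It was measured by 1 probe, assigned to 1 of the 2 curated RefSeq transcripts of the gene. Mcl1 encodes a short-lived survival protein on which blood stem cells rely. Its brighter probe (A_51_P238786) had 4189.8 in nondiabetic and 4465 in diabetic LSK cells (log2 ratio -0.03 ± 0.20), and lay at percentile 97.4 on both arrays. Its other probe (A_52_P93933) had 609 and 790.2 (log2 ratio 0.26 ± 0.20). Neither gene came near 2-fold by any probe.

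Bcl2l1, which encodes Bcl-xL and is known for keeping erythroid cells and platelets alive, was lower in diabetic LSK cells by both of its probes. The brighter probe (A_55_P1974877) had 451 in nondiabetic and 376 in diabetic LSK cells (log2 ratio -0.38 ± 0.20). The dimmer probe (A_52_P510877) had 133 and 81.0 (log2 ratio -0.83 ± 0.21). The probes are assigned to different transcripts of the 5 curated ones, pointed the same way and stayed short of 2-fold.

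Bcl2l2, the gene of the survival protein Bcl-w, was the survival gene that differed most, and both of its probes were higher in diabetic LSK cells. Probe A_55_P2144120 had 59.4 in nondiabetic and 179 in diabetic LSK cells, which is 2.78-fold higher after scaling and a log2 ratio of 1.48 ± 0.21. Probe A_55_P2132507 had 72.8 and 126 (log2 ratio 0.67 ± 0.21). The pair shared the direction and differed by 0.80 on the log2 scale, and both probes are assigned to the same and only curated transcript of the gene. The promoter of Bcl2l2 is shown because Bcl2l2 was the member with both of its probes higher, and the RefSeq table gives it 1 start site. It lies on the plus strand of GRCm38.p6 at chr14:54883175-54883474, from 250 bases before to 50 bases after the start, with 65.3% G and C. Motifs were searched on both strands: the FOXO core TGTTTAC, the E-box CACGTG, the GC box GGGCGG and the CCAAT box CCAAT. Capitals mark the only match, a GC box on the opposite strand 103 bases before the start.
Bcl2l2: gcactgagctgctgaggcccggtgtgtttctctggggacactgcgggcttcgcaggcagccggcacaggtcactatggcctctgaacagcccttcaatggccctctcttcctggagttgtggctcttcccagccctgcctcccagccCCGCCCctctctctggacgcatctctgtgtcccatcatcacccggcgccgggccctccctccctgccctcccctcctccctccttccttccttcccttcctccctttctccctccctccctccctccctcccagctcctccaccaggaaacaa

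Bak1, the pore-forming member, which opens the mitochondrial membrane once it is freed or activated, was level. Its probe (A_55_P2013113) had 854 in nondiabetic and 900.1 in diabetic LSK cells (log2 ratio -0.04 ± 0.20). The probe lay at percentile 91.5 and 91.1 of the arrays.

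Among the 3 kinds of members, the BH3-only genes had the widest range of log2 ratios by brightest probe, from -2.60 to 1.33. Its ends were set by Bcl2l11, whose probes disagreed, and by Bmf, a bound. Bcl2l11, which encodes Bim, the BH3-only protein that binds every survival member and is raised when cytokines are withdrawn, gave opposite answers by its 2 probes. Probe A_51_P484880, assigned to transcript NM_207680, had 163 in nondiabetic and 29.1 in diabetic LSK cells, which is 6.06-fold lower after scaling and a log2 ratio of -2.60 ± 0.24. Among the 32506 probes measured on both arrays, 0.788% were as low or lower. Probe A_52_P348214, assigned to NM_001284410, had 38.4 and 88.0, which is 2.11-fold higher and a log2 ratio of 1.08 ± 0.23. Both differences are past 2-fold and several times the software's error, in opposite directions. The RefSeq table lists 5 curated transcripts for the gene, and a direction for Bcl2l11 as a whole cannot be given from these probes.

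Bcl2l11 also has 2 start sites in the promoter table, and both windows are shown because the probes of the gene, assigned to different transcripts, differed in direction. Which start site gives rise to the transcript of which probe is not stated there. The transcript assigned to a probe is the array's label for it. Probe sequences were not available, so which of the curated transcripts each probe reads is not known. Both windows lie on the plus strand of GRCm38.p6, at chr2:128125788-128126087 and chr2:128127325-128127624, with 71.0% and 74.0% G and C. Capitals mark matches to the same motifs. The marked matches do not overlap in either window.
Bcl2l11 first start: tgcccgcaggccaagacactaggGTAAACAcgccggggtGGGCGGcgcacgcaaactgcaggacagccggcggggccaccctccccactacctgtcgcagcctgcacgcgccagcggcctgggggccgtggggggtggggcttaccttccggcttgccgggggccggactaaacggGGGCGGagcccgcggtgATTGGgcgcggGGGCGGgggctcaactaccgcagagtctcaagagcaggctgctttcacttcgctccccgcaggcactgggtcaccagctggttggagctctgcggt
Bcl2l11 second start: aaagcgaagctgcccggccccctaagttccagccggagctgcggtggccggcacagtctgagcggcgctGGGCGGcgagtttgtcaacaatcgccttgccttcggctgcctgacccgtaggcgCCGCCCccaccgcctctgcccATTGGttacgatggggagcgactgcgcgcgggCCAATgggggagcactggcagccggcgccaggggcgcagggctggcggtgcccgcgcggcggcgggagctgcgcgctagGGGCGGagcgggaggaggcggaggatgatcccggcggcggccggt

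The first window held a match to the FOXO core, on the opposite strand 227 bases before the start, and the second held none. Over the 15 promoter windows of the 9 members that the table holds, this was the only FOXO core, against 3.65% of all 32851 windows of the same length. No member window held the E-box, which 7.15% of all windows hold. A GC box stood in 8 of the 15 windows, from 7 genes, against 35.7% of all windows, and a CCAAT box in 5 windows, from 3 genes, against 37.4%. The median share of G and C was 63.3% in the member windows and 52.7% in all windows. Several windows of a gene are not independent, and a match is a run of letters and not a measured binding site.

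Bmf, whose protein is tethered to the cytoskeleton through a dynein light chain, was detected in diabetic LSK cells only. Its probe (A_55_P2029106) had 5.37 on the nondiabetic array, where the scanner software did not call it above background, and 27.8 on the diabetic array. The ratio is therefore a bound, taken against the dimmest probe called above background there (10.2), and in diabetic LSK cells Bmf was at least 2.51-fold higher. The median of 308 negative control spots was 2.35 and 2.32, and 3 of them were brighter than Bmf on the nondiabetic array.

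Bad, whose product is held inactive by growth factor kinases such as Akt, was read by 2 dim probes that differed. Probe A_55_P1962234 had 71.8 in nondiabetic and 41.5 in diabetic LSK cells (log2 ratio -0.91 ± 0.23). Probe A_65_P16603 had 44.3 and 50.1 (log2 ratio 0.06 ± 0.23). Both are assigned to the same transcript, and neither reached 2-fold.

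Bid, which caspase-8 cleaves to link death receptors to mitochondria, was level. Its probe (A_52_P574653) had 75.8 in nondiabetic and 71.9 in diabetic LSK cells (log2 ratio -0.19 ± 0.21). Bik, whose product acts at the endoplasmic reticulum, did not stand clear of background on either array. Its probe (A_51_P117794) had 3.89 and 5.0, and no ratio is given.

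**Figure D2:**
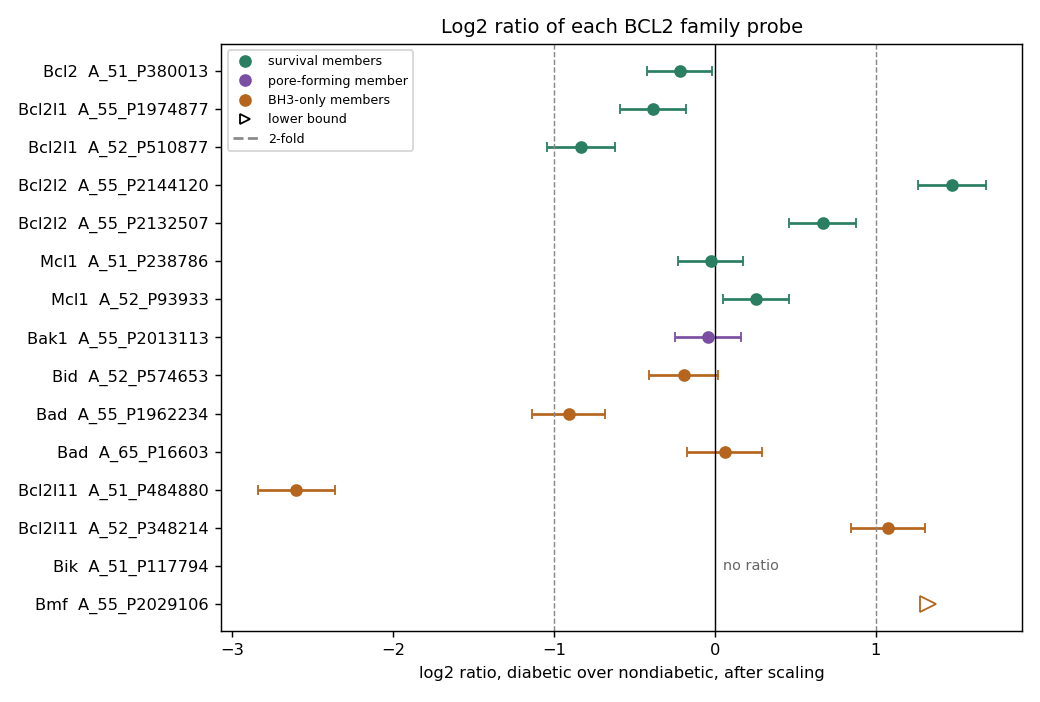
Log2 ratio, diabetic over nondiabetic, of each BCL2 family probe, 1 array per condition. Bars are the scanner software's error carried to the ratio, the open triangle is a bound, and dashed lines mark 2-fold. The 3 probes beyond the line on the right belong to Bcl2l2, Bcl2l11 and Bmf, and the 1 beyond the line on the left is the other probe of Bcl2l11.

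Counted over the 10 members, 3 of 14 probes with a ratio or bound were higher by 2-fold or more in diabetic LSK cells and 1 was lower by as much. Over all 37863 probes with a signal on at least 1 array, 11.1% were higher by that much and 11.2% lower. With a gene represented by its brightest probe, 2 of 9 members were higher by 2-fold or more (Bcl2l2 and Bmf), 1 was lower (Bcl2l11) and 6 lay within 2-fold. Over 15218 genes, 11.0% were higher and 10.1% lower by that much. Brightness was taken over both arrays, and the Bcl2l2 probe counted was the dimmer of its 2 on the nondiabetic array. The other Bcl2l2 probe, with a log2 ratio of 0.67, lay within 2-fold. Bmf was counted through its call on the diabetic array alone. The other probe of Bcl2l11 was more than 2-fold higher, and with probes averaged 0 members were at least 2-fold lower. With so few members, nothing particular to them is read from these shares. The median log2 ratio of the 9 members was -0.19, beside 0.02 for all genes with a ratio or bound, and the median size of the log2 ratio, without its sign, was 0.38 beside 0.44. By kind, 1 of 4 survival genes was at least 2-fold higher and 0 lower. Among the 4 BH3-only genes with a ratio or bound, 1 was higher (Bmf) and 1 lower (Bcl2l11, by its brightest probe only).

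Direction depended on the probe for 3 of the 5 members with several probes, Mcl1, Bad and Bcl2l11, and for Mcl1 and Bad 1 of the probes lay within the software's error of 0. Of 3245 genes with at least 2 probes measured on both arrays, 44.3% had a brightest and a next probe of opposite sign, so this is common on these arrays. Only Bcl2l11 among the members had probes past 2-fold in opposite directions, which 58 genes showed (1.79%). Its probes differed by 3.68 on the log2 scale, a gap reached by 28 genes (0.863%). A gap of more than 2-fold, found in 30.7% of the genes, was present in 1 of the 5 members.

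**Figure D3:**
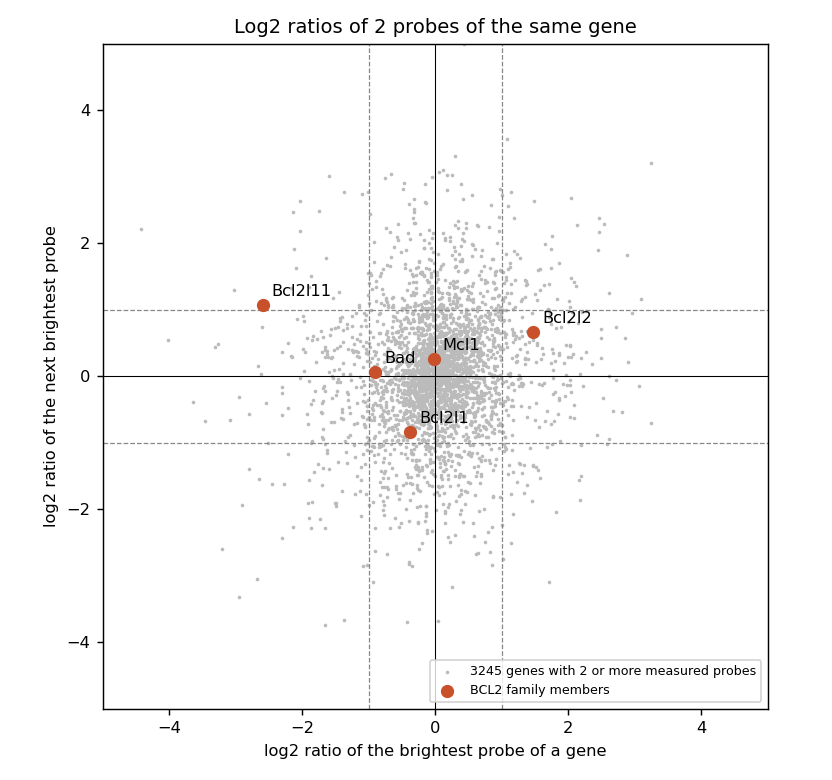
Log2 ratio (diabetic over nondiabetic) of the brightest probe of a gene against that of its next probe, for 3245 genes with at least 2 probes measured on both arrays (grey) and the 5 such BCL2 family members (orange). Dashed lines mark 2-fold. Bcl2l11 lies past 2-fold in opposite directions, Bcl2l2 and Bcl2l1 have both probes on 1 side of 0, and Mcl1 and Bad lie close to an axis.

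The other genes of the pathway were read from 3 lists by the brightest probe of each gene. Of 13 further family genes, 11 had a probe and 8 a ratio or bound, with 1 at least 2-fold higher, 3 lower and a median log2 ratio of -0.56, beside the 11.0% and 10.1% of all genes. The number lower was 4 with the authors' processed values and 2 under normexp or with only probes measured on both arrays. Bax, the partner of Bak1 in pore formation, was level, with 854 in nondiabetic and 1024 in diabetic LSK cells. Bbc3, which encodes the p53-induced BH3-only protein Puma, had 1253 and 267, 5.08-fold lower after scaling. Pmaip1, which encodes Noxa, the BH3-only protein that binds Mcl-1, had 14.6 and 41.4, 2.62-fold higher. Bok, a pore-forming relative of Bax, had 135 and 64.9, 2.26-fold lower. Bcl2l14 was not well above background on the diabetic array by either of its probes, with 83.6 and 9.71 for the brighter, at least 9.02-fold lower, and 69.2 and 3.24 for the other, at least 7.47-fold lower. The marker genes named above as past 2-fold (Mecom, Cd3d, Cd3g, Cd79a, Hba-a1 and S100a8) differed between the same arrays, and their part in these values was not tested.

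Of 15 genes of the mitochondrial death machinery, 15 were measured on both arrays, with a median log2 ratio of 0.01. Of these, 2 were at least 2-fold higher, 1 lower and 12 within 2-fold, beside 11.0% higher and 10.1% lower among all genes. Apaf1, the scaffold of the apoptosome, had 22.8 in nondiabetic and 67.0 in diabetic LSK cells, 2.71-fold higher. Casp9, the caspase it activates, had 329 and 722, 2.02-fold higher, and within 2-fold under quantile or loess normalization. Birc2, an inhibitor of apoptosis, had 215 and 85.6, 2.72-fold lower. Of 22 partners and regulators of the members, 22 had a ratio or bound, 3 were at least 2-fold higher, 1 lower and 18 within 2-fold, beside the same shares of all genes. With so few genes, nothing particular to either list is read from these counts. Fbxw7, a ubiquitin ligase that marks Mcl-1 for degradation, was 4.46-fold lower by its brighter probe, from 501 to 122, while its other probe had a log2 ratio of 0.29. Dynll2, the dynein light chain that holds Bmf, had 929 and 2088 by its brighter probe, 2.07-fold higher, whereas its other probe had a log2 ratio of -0.92. Pim3, of the Pim kinases that phosphorylate Bad, had 54.4 and 170.3, 2.89-fold higher. The co-chaperone gene Bag4 had 20.1 and 109.95, 5.03-fold higher.

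**Figure D4:**
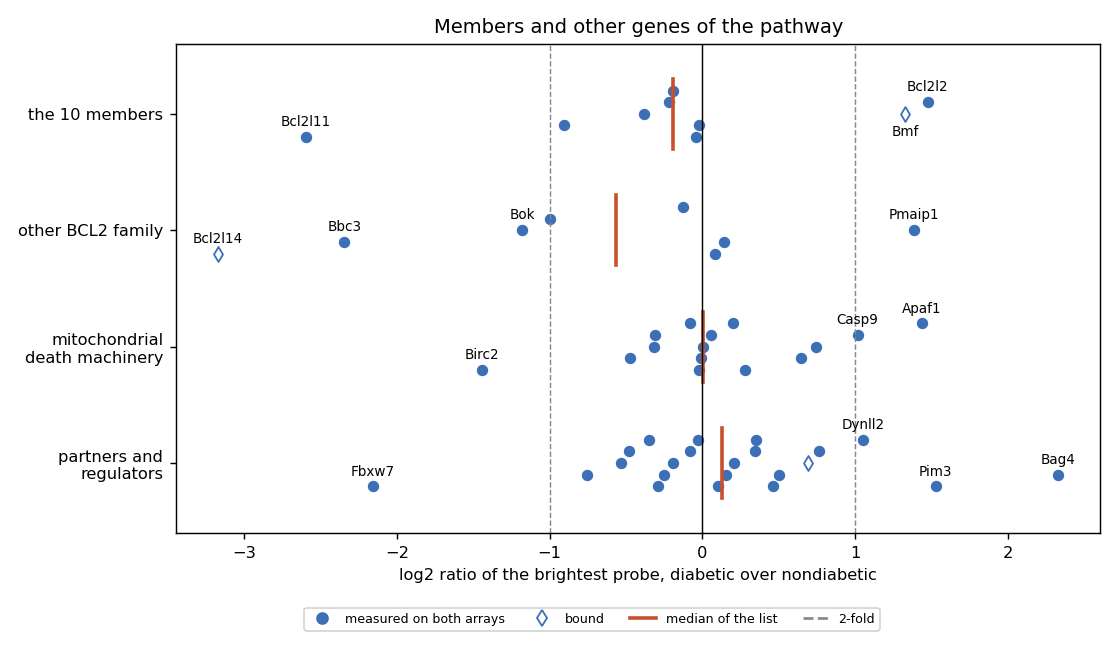
Log2 ratio (diabetic over nondiabetic, brightest probe) of the members and of 3 lists of pathway genes, with a point per gene, open diamonds for bounds and a line at the median of the list. Genes past 2-fold (dashed lines) are named. Most genes of the death machinery and of the regulators lie between the lines, as do 6 of the 9 members.

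Most processing choices left the members where they were. Under quantile normalization, loess, centring on the median ratio, the authors' processed values and no filter on dim probes, 14 of 14 member probes kept their sign and their side of 2-fold. Normexp background correction started from the median signal and median background of each spot, where the other settings used the processed intensity. An offset of 50 was also added, and the parts of input and offset in the shifts were not tested apart. Normexp kept 11 of 14 on their side of 2-fold and 12 of 14 in sign. It left 0 member probes at least 2-fold higher and 1 lower, and of the pathway genes above it left 0 further family genes, 0 death machinery genes and 1 partner or regulator at least 2-fold higher. Under normexp Bcl2l2 probe A_55_P2144120 had a log2 ratio of 0.96, Bmf had 0.22, and the probes of Bcl2l11 had -1.28 and 0.43, so those of Bcl2l11 still pointed in opposite directions. With the probes of a gene averaged, Bcl2l2 had a log2 ratio of 1.07 and Bcl2l11 had -0.76.

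**Figure D5:**
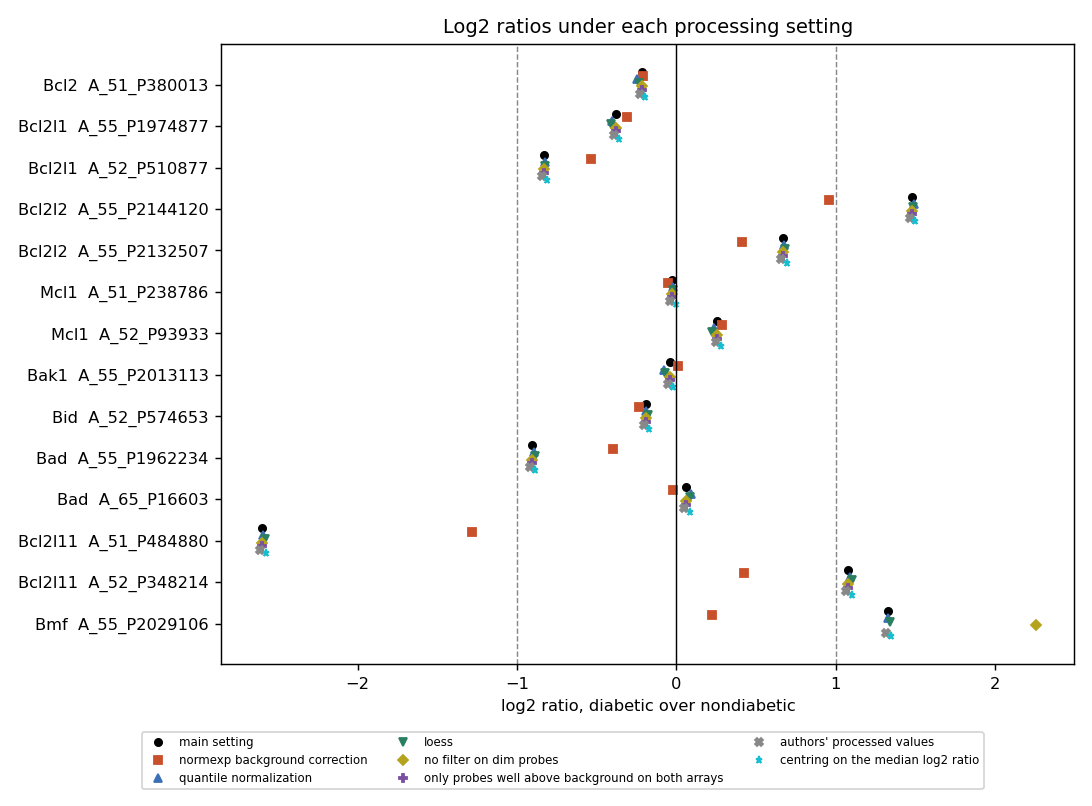
Log2 ratio (diabetic over nondiabetic) of the 14 BCL2 family probes with a ratio or bound under each processing setting, a symbol for each setting and dashed lines at 2-fold. Normexp (orange squares) draws the dimmer probes towards 0, taking the brightest Bcl2l11 probe from -2.60 to -1.28, and without a filter on dim probes Bmf moves from its bound of 1.33 to 2.25.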

How the data were processed

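RNA of LSK cells was amplified with the Ovation Pico WTA System V2, labelled with Cy3 and hybridised to 1-colour Agilent mouse arrays, 1 per condition. The deposited scanner files, made by the authors with Agilent Feature Extraction 11.5.1.1 per the file headers, hold background-corrected intensity per spot. The authors' table of processed values was the same intensity times 1 constant per array and served as an alternative. Here, control spots and outlier flags were left out, spots of a probe were averaged, and log2 intensity was centred on the 75th percentile of each array, which moves all ratios by 0.12. A gene was named through the RefSeq accession of its probe, which named 53.7% of non-control spots. In counts of genes, the probe with the highest mean log2 intensity over both arrays stood for a gene as its brightest. Where the software called a probe above background on a single array, the ratio is a bound against the dimmest called probe of the other, and where on neither, no ratio is given. The share of spots well above background was 62.7% on the nondiabetic and 63.9% on the diabetic array. All 10 members were named with every probe, and of the other lists the genes past 2-fold by their brightest probe and some within it. One marker gene of the lists is not reported here. Members and lists were chosen with earlier results of these data known. Promoter windows and transcripts are RefSeq's on GRCm38.p6. Scripts ran in Python 3.11.15 and R 4.3.3 with limma 3.58.1 for normexp, quantile and loess, and were tested on simulated data.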

Additional observations from a re-analysis of the deposited data

How the results depend on the processing

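No paired analysis was possible because nondiabetic and diabetic LSK cells were hybridised once each, so no replicate could be left out and no test across mice could be made. Among the member probes, only Bak1 and Bad probe A_65_P16603, both near 0, changed sign, under normexp. Normexp background correction left 0 member probes and 0 member genes at least 2-fold higher, where the main setting had 3 and 2, and left 0 further family genes, 0 genes of the death machinery and 1 partner or regulator at least 2-fold higher. The log2 ratios it moved by more than the software's error were -0.53 for Bcl2l1 probe A_52_P510877, 0.96 and 0.41 for the Bcl2l2 probes, -0.40 for Bad probe A_55_P1962234, and -1.28 and 0.43 for the Bcl2l11 probes. Bmf, a bound with no error of its own, had a log2 ratio of 0.22 under normexp. Quantile normalization and loess each left 1 death machinery gene at least 2-fold higher. Without a filter on dim probes Bmf had a log2 ratio of 2.25, and with only probes measured on both arrays 1 member gene was at least 2-fold higher. With the probes of a gene averaged, log2 ratios were -0.61 for Bcl2l1, 1.07 for Bcl2l2, -0.42 for Bad and -0.76 for Bcl2l11, and 0 member genes were at least 2-fold lower. The cause of these shifts was not tested beyond the settings themselves. Low signal limits Bik, which was called well above background on neither array (4 and 2 of 308 negative control spots were brighter), and Bmf on the nondiabetic array.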
